A study of Homo sapiens with 6 samples.

Results

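The 10 integrin subunit genes that epithelial cells commonly use, 5 alpha and 5 beta, were followed on all 6 arrays of the series. They were chosen by name: ITGA2, ITGA3, ITGA5, ITGA6, ITGAV, ITGB1, ITGB4, ITGB5, ITGB6 and ITGB8. All 10 of them were among the 17687 named genes, each with 1 probe set. Expression was measured on Clarion S arrays, which report a fluorescence intensity for each probe set, in 3 established lines of non-small cell lung cancer. The lines PC-9 and HCC827 have a mutant EGFR, the receptor for epidermal growth factor. Each gave a control array and one treated for 6 hours with erlotinib at 0.01 µM, a drug that blocks the EGFR kinase. H322 has the wild-type receptor and gave a control array and an array after 6 hours with EGF, which the labels give at 100 µg/ml. The labels name tumour necrosis factor alpha as part of the medium without saying whether control cultures had it. If only treated cultures had it, the cytokine and the treatment cannot be told apart. Each line is 1 culture per condition as far as the labels tell, so a value within a line has no replicate check.

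Integrins are cell surface receptors made of 1 alpha and 1 beta chain, and the pairing sets which matrix protein the receptor binds. The beta1 chain joins most alpha chains: alpha2 to make a collagen receptor, alpha3 a laminin receptor and alpha5 the classical fibronectin receptor. The alpha6 chain joins beta1 or beta4, and alpha6beta4 anchors epithelial cells to laminin in hemidesmosomes. The alphav chain joins beta1, beta5, beta6 or beta8, and alphavbeta6 and alphavbeta8 release active transforming growth factor beta from its latent complex. Inside the cell, talins and kindlins bind the beta tails and switch the receptors on, and adhesion signalling through integrins meets that of EGFR at several points.

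The promoters of ITGA2 and ITGA5 are shown because these were the members with the lowest mean changes with erlotinib. Both are from RefSeq on GRCh38.p14, 250 bases up to the annotated start, written 5′ to 3′ on the strand of the gene. ITGA2 lies on the plus strand, at chr5:52989102-52989351, and ITGA5 on the minus strand, at chr12:54419267-54419516. Capitals mark matches to SP1 (GGGCGG, or CCGCCC on the other strand) and to AP-1 (TGAGTCA, or TGACTCA on the other strand).
ITGA2: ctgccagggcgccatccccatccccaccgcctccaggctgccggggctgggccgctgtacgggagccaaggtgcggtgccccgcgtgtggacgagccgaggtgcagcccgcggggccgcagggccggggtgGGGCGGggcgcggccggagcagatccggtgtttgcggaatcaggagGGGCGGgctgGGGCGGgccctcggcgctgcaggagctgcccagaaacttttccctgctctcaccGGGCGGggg
ITGA5: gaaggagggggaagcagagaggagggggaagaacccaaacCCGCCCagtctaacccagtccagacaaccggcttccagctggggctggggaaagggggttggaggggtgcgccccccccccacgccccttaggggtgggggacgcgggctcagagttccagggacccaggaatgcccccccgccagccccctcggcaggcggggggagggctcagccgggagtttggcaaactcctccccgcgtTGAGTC
The ITGA2 stretch held 4 SP1 matches, the nearest beginning 9 bases before the start, and none to AP-1. The ITGA5 stretch held 1 SP1 match and, across the start itself, 1 AP-1 match, of which the first 6 of 7 letters end the printed stretch. RefSeq windows of 300 bases, from 250 before to 50 after a start, were found for 8 members, in 13 windows. AP-1 letters were in 1 of these 13 windows, that of ITGA5, against 4.95% of all 35116 windows. SP1 letters were in 9 of the 13 windows, of ITGA2, ITGA5, ITGA6, ITGB1, ITGB5 and ITGB8, against 45.0% of all windows. The ETS letters CCGGAAG, or CTTCCGG on the other strand, were in 2 of the 13, of ITGA6 and ITGB5, against 10.3% of all. SP1 and AP-1 letters do not overlap in the sequences shown. A match describes letters and is no evidence that a factor binds.

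The arrays were alike in depth of signal. Medians lay between 148 and 157 intensity units. The background, taken as the 95th percentile over 612 negative control probe sets, lay between 6.92 and 7.47 on the scale of log2(intensity + 1), which is used for every level below. All 10 members lay above it on all 6 arrays, the dimmest by 1.58, for ITGB5 on the HCC827 control array. The lines were epithelial by their markers: EPCAM, CDH1, KRT8, KRT18 and KRT19 lay above background on all 6 arrays. Of 6 measured leukocyte markers 4 were below background on every array, with a summed intensity of 132 to 457 against 253000 to 378000 for the epithelial markers. ITGAM was above it in PC-9 and ITGB2 on the HCC827 erlotinib array. Of 4 mesenchymal markers 3 (VIM, CDH2 and FN1) were above background in PC-9, 1 in HCC827 and 0 in H322.

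ITGA2 was the only member whose change with erlotinib passed the test, and it was lower in both EGFR-mutant lines. The effect of erlotinib was tested with limma over all genes, using the 4 EGFR-mutant arrays and the cell line as a block. Values after ± are limma's moderated SE, and the adjusted p is by Benjamini-Hochberg over all 17687 genes at a threshold of 0.05. ITGA2 encodes the alpha2 chain of the collagen receptor. Its level was 14.81 in PC-9 control cells and 13.27 with erlotinib, 13.70 in HCC827 control cells and 12.53 with erlotinib. Both erlotinib arrays were thus below both control arrays, as was the case for 11.2% of all genes and for 1 of the 10 members. ITGA2 fell by 1.36 ± 0.14 on the log2 scale, a 2.56-fold decrease (limma adjusted p = 0.0116, n = 2 lines). PC-9 had a decrease of 2.91-fold and HCC827 one of 2.26-fold, and 118 of the 17687 genes had a lower mean change. Among all genes 0.916% were called lower and 0.565% higher, or 1.48% in either direction. With no block for the line, and with 1 prior spread for all genes in place of one that follows the level, limma did not call ITGA2 (adjusted p = 1 and 0.134). These fits called 0 and 1 of all 17687 genes.

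Leaving alphav aside, the other alpha chains that join beta1 (ITGA3, ITGA5 and ITGA6) were also lower in both lines, by smaller amounts that did not pass. The ITGA5 level, for the fibronectin receptor, was 12.38 and 11.66 without and with erlotinib in PC-9, with 11.41 and 10.81 for HCC827. The HCC827 control array lay below the PC-9 erlotinib array, so the groups overlapped, while the mean change was -0.66 ± 0.16 (limma adjusted p = 0.108). ITGA6, whose product joins beta4 in hemidesmosomes, was at 13.17 and 12.64 in PC-9 and at 12.13 and 11.43 in HCC827. Here too the groups overlapped, and the mean change was -0.61 ± 0.15 (limma adjusted p = 0.104). Both genes passed in limma when arrays were centred on their medians (adjusted p = 0.0499 and 0.0485). They also passed in limma by quantile normalization (adjusted p = 0.0276 and 0.033) and with a floor at background (0.0116 and 0.00872). In that order, these fits called 3.6%, 5.39% and 6.3% of all genes, against 1.48% in the main fit. The passes are thus not particular to ITGA5 and ITGA6. The floor also gave a median change of -0.35 over all genes in HCC827. ITGA3, for a laminin receptor, was at 14.31 and 13.84 in PC-9 and at 14.85 and 14.72 in HCC827, with a mean change of -0.30 ± 0.13 (limma adjusted p = 0.349). Thus the 4 alpha members other than ITGAV were lower in both lines, of which 1 passed, while ITGAV was higher in both. Of all genes, 29.6% were lower in both lines.

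ITGB1, the partner of these 4 chains, did not pass, and its changes differed in sign between the lines. Its level was 15.85 and 15.87 in PC-9, with 15.52 and 15.38 for HCC827. The mean change was -0.06 ± 0.10 (limma adjusted p = 0.869). In PC-9 the change was 0.02, and its sign turned after quantile normalization.

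ITGAV, ITGB5, ITGB6 and ITGB8 had mean changes above 0, as did ITGB4, and none passed. ITGAV was at 13.46 and 13.80 in PC-9 and at 12.56 and 12.74 in HCC827, with a mean change of 0.26 ± 0.14 (limma adjusted p = 0.454). ITGB8, whose product activates latent transforming growth factor beta with alphav, was at 13.61 and 14.19 in PC-9 and at 11.36 and 11.51 in HCC827. Its mean change of 0.36 ± 0.16 was the highest of the 10 members (limma adjusted p = 0.363). The lines lay farther apart than erlotinib moved either one, so the groups overlapped. ITGB5, for the vitronectin receptor, was at 12.00 and 12.14 in PC-9 and at 8.86 and 9.40 in HCC827, with a mean change of 0.34 ± 0.19 (limma adjusted p = 0.50). ITGB6, the other activator of transforming growth factor beta, was at 13.04 and 13.28 in PC-9 and at 11.47 and 11.41 in HCC827. The signs of its changes differed, and the mean was 0.09 ± 0.16 (limma adjusted p = 0.866). ITGB4, the hemidesmosome chain, was at 12.34 and 12.33 in PC-9 and at 9.27 and 9.64 in HCC827, with a mean of 0.18 ± 0.19 (limma adjusted p = 0.758). Its partner ITGA6 was lower in both lines. The PC-9 change of ITGB4, -0.02, turned its sign after quantile normalization.

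Over the 10 members the median mean change was 0.02, against 0.00 for all genes. Of the 10, 4 were lower in both lines, 3 higher in both and 3 had opposite signs, where 29.6%, 30.0% and 40.4% of all genes did so. A change of at least 2-fold was seen for 1 member in PC-9 and 1 in HCC827, ITGA2 in each. It was lower there, as were 1.78% and 1.92% of all genes. Those shares count a gene only if the brighter array of the line reached 7.28, the median of all probe sets.

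**Figure D1:**
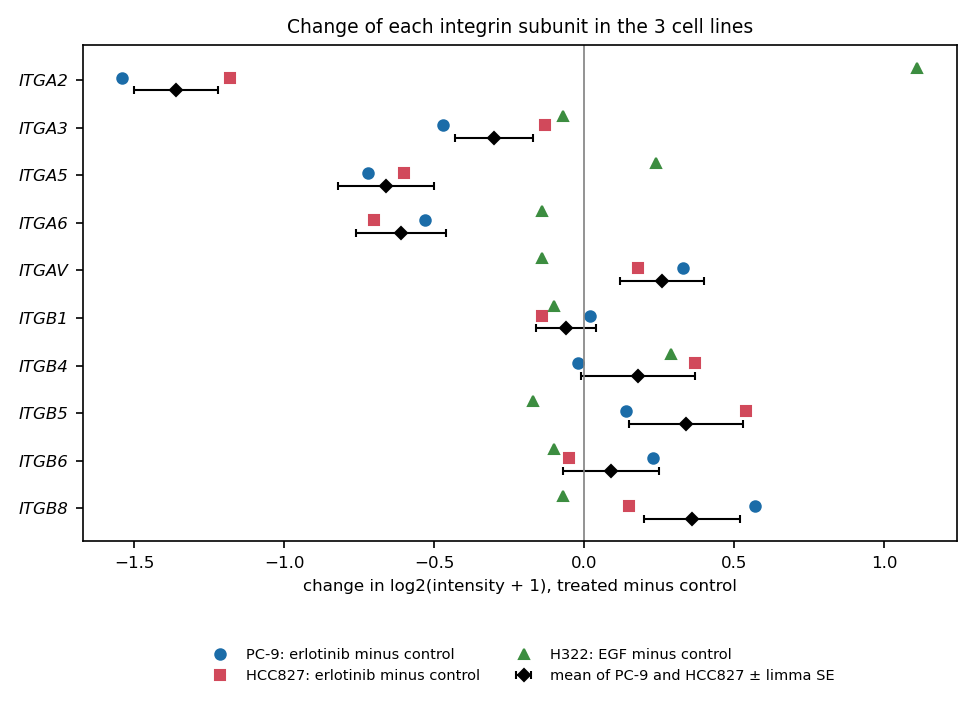
Change of each of the 10 integrin subunits, treated minus control in log2(intensity + 1), in PC-9 and HCC827 (erlotinib) and H322 (EGF), with 1 array per point, and the mean of the 2 erlotinib lines with limma's SE as a bar. ITGA2 stands at -1.54 and -1.18 with erlotinib and at 1.11 with EGF, and the other members lie between -0.72 and 0.57.

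The response to EGF in H322, where the wild-type receptor is stimulated, was read from 1 array per condition and has no test. ITGA2 was at 10.16 in control cells and at 11.26 with EGF, or 2.16-fold higher. It was the only member past 2-fold, where 0.102% of all genes were higher and 0.0848% lower by that much (0.187% in either direction, counted when the brighter array reached 7.28, the median of all probe sets). ITGA5 was at 11.35 and 11.59, a difference of 0.24, and ITGB4 at 9.92 and 10.21, a difference of 0.29. These 3 members were higher with EGF and the other 7 lower, where 51.1% of all genes were higher. The 7 lower ones were small: ITGB5 went from 9.27 to 9.10, ITGA6 from 11.37 to 11.23, ITGAV from 12.07 to 11.93, ITGB1 from 14.62 to 14.52 and ITGB6 from 12.11 to 12.01. ITGB8, at 13.51 and 13.44, and ITGA3, at 12.58 and 12.51, differed by -0.07 each. The median over members was -0.08, against 0.01 for all genes.

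ITGA2 and ITGA5 were thus lower in both erlotinib lines and higher with EGF, as were 18.3% of all genes. By at least 2-fold in all 3 lines, 4 of all genes (0.0226%) were lower with erlotinib and higher with EGF. A gene was counted only if the brighter array of each line reached 7.28, the median of all probe sets. ITGA2 was 1 of the 4. The other genes, named after their values were seen, were the AP-1 subunit FOSL1, the nuclease AEN and the tRNA methylation factor WDR4. WDR4 lay below background on the PC-9 erlotinib and H322 control arrays. The erlotinib and EGF comparisons share no array.

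**Figure D2:**
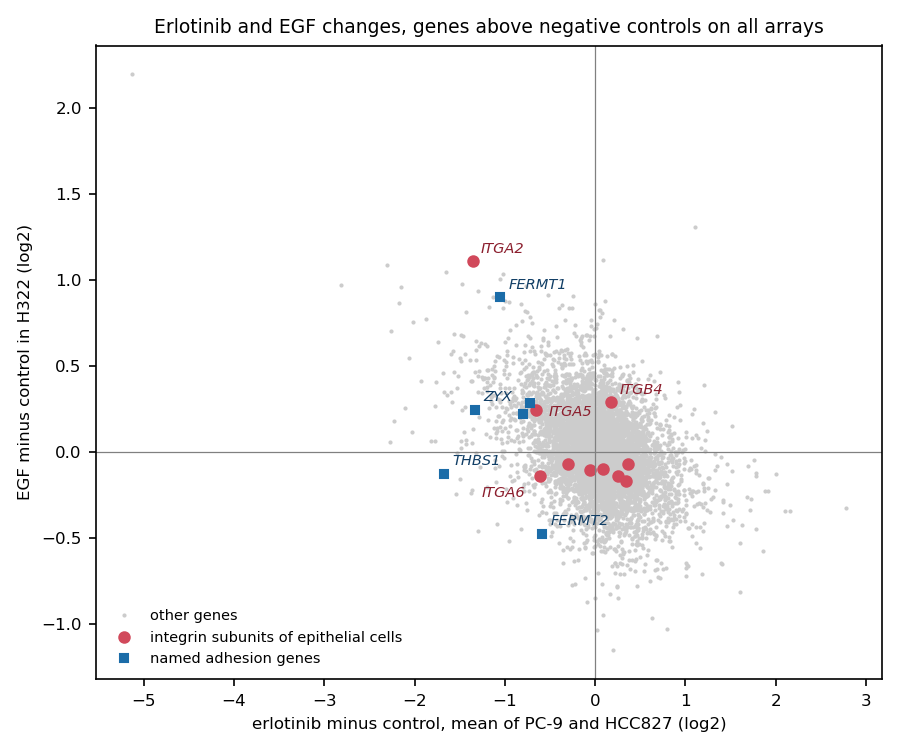
Mean erlotinib change in PC-9 and HCC827 (x axis, log2) against the EGF change in H322 (y axis, log2) for the 7405 genes above background on all 6 arrays, with the integrin subunits as red circles and named adhesion genes as blue squares. ITGA2 lies at -1.36 and 1.11, next to FERMT1 at -1.05 and 0.90. The other 9 subunits lie from -0.66 (ITGA5) to 0.36 (ITGB8) on the x axis and from -0.17 to 0.29 on the y axis.

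As for most genes above background on all arrays, the highest and lowest lines differed in integrin levels more than the treatments moved them. In each of the 10 members the highest and lowest of the 3 control arrays were farther apart than the largest change with treatment, which held for 87.7% of the 7405 genes above background on all arrays. All 10 differed at least 2-fold between the highest and lowest control line, where 57.4% of these genes did. PC-9 had the highest control level for 9 of the 10, against 32.8% of these genes, and HCC827 for ITGA3, at 14.85. With 1 control array per line the order within a member has no test.

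The widest gap between lines was that of ITGA2. The PC-9 control array was 25.2-fold and the HCC827 control array 11.7-fold above that of H322. With EGF the H322 level of 11.26 was still below the 12.53 of HCC827 with erlotinib. ITGA3 exceeded its H322 level 3.33-fold in PC-9 and, in HCC827, 4.82-fold. These 2 members were at least 2-fold lower in H322 than in both EGFR-mutant lines, as were 5.16% of all genes. That share counts a gene only if its brightest control array reached 7.28, the median of all probe sets. ITGA5 levels in HCC827 and H322 were only 0.07 apart on the log2 scale.

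Control levels of ITGB4, ITGB5, ITGB6 and ITGB8 were lowest in HCC827. The share of all genes lowest in HCC827 was not counted, so this order is not read as a trait of beta chains. ITGB5 was 8.86-fold and ITGB4 8.43-fold higher in PC-9 than in HCC827. ITGB8 exceeded its HCC827 level 4.78-fold in PC-9 and 4.46-fold in H322, with PC-9 and H322 only 0.10 apart on the log2 scale. ITGB6 was 2.98-fold higher in PC-9 than in HCC827. ITGB1 varied least among the controls of the beta chains, with PC-9 2.34-fold above H322. ITGAV was 2.63-fold and ITGA6 3.47-fold higher in PC-9 than in H322, and HCC827 lay between them.

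**Figure D3:**
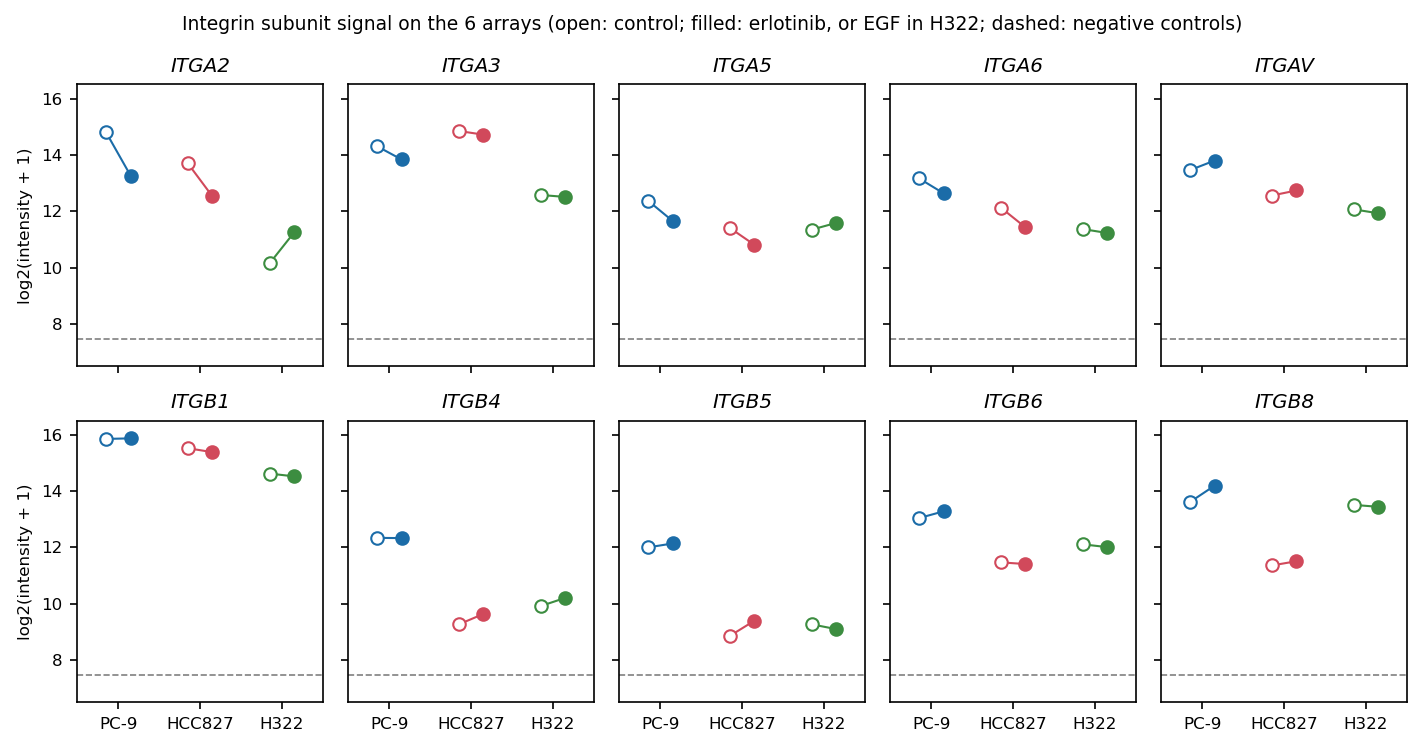
Level of each integrin subunit, log2(intensity + 1), on the 6 arrays, by cell line, with control as open and treated as filled circles, and the highest background of any array (7.47) as a dashed line. All points lie above the background, and ITGA2 moves down in PC-9 and HCC827 and up in H322. The highest and lowest controls lie farther apart than any treatment moves a line, as for 87.7% of the 7405 genes above background on all arrays. Levels of different genes come from different probe sets and are not to be compared.

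By Pearson's correlation of log2 levels over the 6 arrays, the genes most like ITGA2 among 7404 others above background on all arrays were PDK1 (r = 0.993), TUBB2A (0.991), EZR (0.990), TXNDC9 (0.987) and SLC67A2 (0.987). TUBB2A is close in sequence to TUBB2B, so its signal is uncertain. The arrays come from 3 lines, and each of these genes was lowest in H322 control cells. They were picked for likeness to ITGA2 on these same arrays, so changes in its direction are no independent result. PDK1 fell by 0.88 ± 0.15 with erlotinib (limma adjusted p = 0.0452) and was 0.74 higher with EGF. It was not called in limma with no replicate block (adjusted p = 1), with 1 prior spread (0.182), with an offset of 16 (0.0538) or among genes above background alone (0.0634). With no block 0 of all 17687 genes were called, and with 1 prior spread 1 was. The other 4 had mean changes from -0.31 to -0.44, none past the threshold, and were 0.20 to 0.42 higher with EGF.

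Of 15 other measured integrin subunits, 11 lay below background on all 6 arrays, among them the leukocyte chain ITGAL and the platelet chain ITGA2B. None passed with erlotinib, where 1.48% of all genes did, and their median change was -0.02. ITGAE, whose product binds E-cadherin with beta7, was the only one above background on every array. It was at 10.83 and 10.49 in PC-9, 9.95 and 8.68 in HCC827 and 8.87 and 9.09 in H322, with a mean erlotinib change of -0.80 ± 0.26 (limma adjusted p = 0.203). ITGB7, its partner chain, was below background throughout. ITGB3, which joins alphav, was above background in PC-9 only, at 8.23 and 7.86.

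Of 25 measured cytoplasmic adaptors and adhesion kinases 1 fell with erlotinib, 0 rose and 24 did not pass, with a median of -0.13. Among all genes 0.916% were called lower and 0.565% higher. Of the 25, 8 lay below background on all 6 arrays. The one that fell was FERMT1, which encodes kindlin-1, an epithelial activator of integrins that binds the beta tail. It was at 13.10 and 12.13 in PC-9, at 13.83 and 12.70 in HCC827, and at 10.86 and 11.77 in H322 without and with EGF. Both erlotinib arrays lay below both controls, and FERMT1 fell by 1.05 ± 0.14, or 2.07-fold (limma adjusted p = 0.0201). With EGF it was 1.87-fold higher. Like ITGA2 it was not called with no block (adjusted p = 1) or with 1 prior spread for all genes in limma (adjusted p = 0.158). Those fits called 0 and 1 of all 17687 genes.

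FERMT2, which encodes kindlin-2, did not pass. It was at 10.73 and 10.67 in PC-9, 10.82 and 9.70 in HCC827 and 10.68 and 10.20 in H322, with a mean erlotinib change of -0.59 ± 0.26 (limma adjusted p = 0.371). ZYX, the focal adhesion protein zyxin, was at 13.37 and 12.83 in PC-9 and at 11.42 and 9.29 in HCC827. Its change was -0.55 in PC-9 and -2.12 in HCC827, and the mean of -1.34 ± 0.33 did not pass (limma adjusted p = 0.108).

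None of 23 measured integrin ligands passed, where 1.48% of all genes did, with a median of -0.06. Of the 23, 8 lay below background on all 6 arrays. THBS1, which encodes thrombospondin-1, was at 16.30 and 15.77 in PC-9 and at 9.79 and 6.97 in HCC827. The last value lay just above the background of that array, 6.92. The mean change of THBS1 was -1.67 ± 0.44 (limma adjusted p = 0.13). CCN1, a matrix protein bound by alphav integrins, was at 12.86 and 12.55 in PC-9, with 11.25 and 9.11 for HCC827, with -1.23 ± 0.37 (limma adjusted p = 0.182). In H322 it was at least 1.40-fold higher with EGF, since its control array was below background. CCN2 was at 12.39 and 10.24 in PC-9, below background on both HCC827 arrays, and at least 1.78-fold higher with EGF.

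Among 10 measured hemidesmosome and lateral partners 1 fell, 0 rose and 9 did not pass, with a median of -0.11. Over all genes 0.916% were called lower and 0.565% higher. The one that fell was PLAUR, the urokinase receptor, which binds integrins at the cell surface. It was at 12.74 and 11.25 in PC-9 and at 12.94 and 11.37 in HCC827, and it fell by 1.54 ± 0.15, or 2.90-fold (limma adjusted p = 0.00973). It was not called in limma with no replicate block (adjusted p = 1) or with 1 prior spread for all genes (adjusted p = 0.117), which called 0 and 1 of all 17687 genes. For PLAUR in H322 the following holds. In H322 its control array was below background and it was at least 1.30-fold higher with EGF. PLEC, which links alpha6beta4 to keratin filaments, was at 11.61 and 11.34 in PC-9 and at 11.02 and 9.85 in HCC827, with -0.72 ± 0.24 (limma adjusted p = 0.219).

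**Figure D4:**
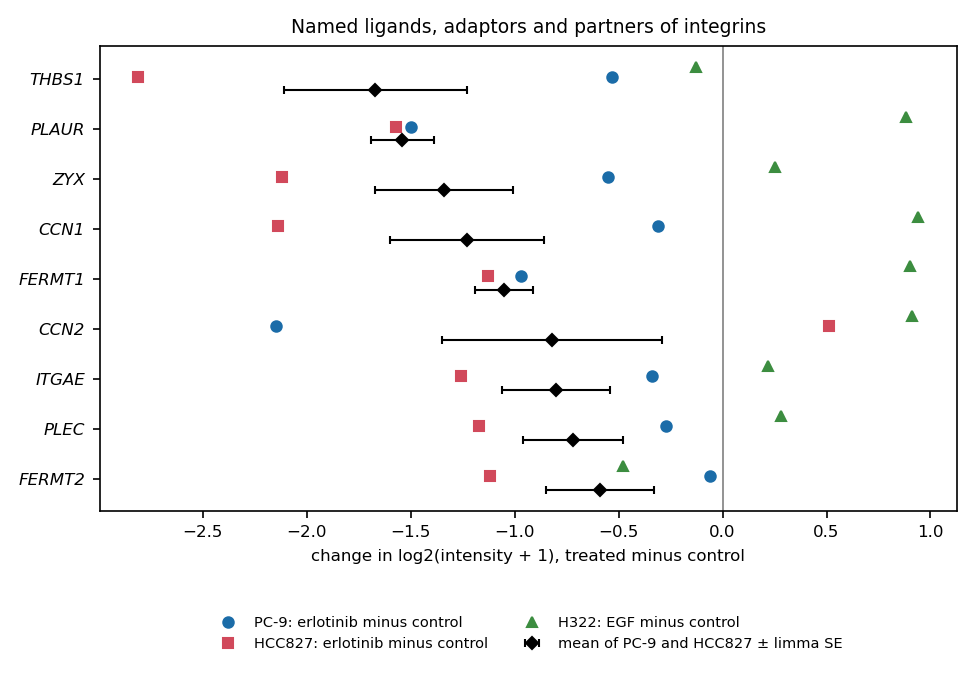
Change of the named ligands, adaptors and partners of integrins, treated minus control in log2(intensity + 1), with 1 array per point for PC-9, HCC827 and H322 and the mean of the 2 erlotinib lines with limma's SE as a bar. FERMT1 and PLAUR have both erlotinib points close together, at -0.97 and -1.13 and at -1.50 and -1.57, and THBS1, ZYX and CCN1 are lower in HCC827 than in PC-9. Arrays below background enter at their measured signal, in H322 for PLAUR, CCN1 and CCN2 and in HCC827 for CCN2.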

How the data were processed

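Total RNA of 6 cultures was labelled with biotin and hybridised to Clarion S arrays. Per the submitters' processing notes, the authors used Affymetrix Expression Console, and the values they deposited are linear probe set intensities. The sources used here do not give its version, background correction, summarisation or scaling. Scaling between arrays would hide a change common to most genes.

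From 24351 probe sets, 17709 had 1 gene symbol in the platform annotation, 0 had several and 6642 had none. The brightest probe set was kept for 20 symbols with several, which left 17687 genes. All 10 members were found in the RefSeq gene table by gene identifier. Values were analysed as log2(intensity + 1), whose differences understate changes of dim genes. A gene below the 95th percentile of 612 negative controls on 1 array of a comparison has only a bound, and below it on both arrays no fold. Motifs were searched on both strands in RefSeq promoter windows.

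Erlotinib was tested with limma 3.58.1 in R 4.3.3 (lmFit, eBayes with trend, two-sided, cell line as a block). The pairing comes from the cell line. With 1 residual degree of freedom and 6.58 that limma adds from other genes, p-values rest mostly on the spread of other genes. The script was tested on simulated data. EGF has no test. Alternatives were no block, 1 prior spread, an offset of 16, median centring, quantile normalization, a background filter, a background floor, the mean of probe sets, and each line left out.

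The members and the 4 lists of integrin genes, ligands, adaptors and partners were chosen with earlier results of these data known. Named genes of a list are those past the threshold and the 2 with the largest mean erlotinib change and the 2 with the largest EGF change among genes above background on at least 1 array of each line used. Members of the lists without a named probe set were not analysed here. Markers of fibroblasts (1 of 4 measured above background on any array), endothelium (2 of 3) and platelets (0 of 3) were read too.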

Additional observations from a re-analysis of the deposited data

Results flagged for a closer look

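For 3 members the erlotinib change had opposite signs in PC-9 and HCC827, which was not tested since each line has 1 array per condition. ITGB4 had -0.02 in PC-9 and 0.37 in HCC827, a difference of 0.39 on the log2 scale. ITGB6 had 0.23 and -0.05, a difference of -0.29. ITGB1 had 0.02 and -0.14, a difference of -0.16. Across all genes 40.4% had opposite signs. After quantile normalization the PC-9 signs of ITGB1 and ITGB4 turned.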

How the results depend on the processing

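Of the 10 members 1 was called with erlotinib, ITGA2. The count was 0 with no replicate block and 0 with 1 prior spread for all genes, where limma gave 0 and 3 members an unadjusted p under 0.05. It was 3 with median centring, 3 by quantile normalization and 3 with the background floor (ITGA2, ITGA5 and ITGA6 each time), and 1 under the other 3 fits. The calls over all genes moved too, from 262 to 0, 1, 636, 954 and 1115 in these fits and to 166 with the offset of 16 and 96 among 10011 genes above background. The background floor moved the median change of all genes by -0.17. Mean changes of ITGA2 lay between -1.39 and -1.29 in all fits, with limma adjusted p from 8.11e-18 to 1. No mean change of a member turned its sign in the fits on both lines. Without replicate 1 (PC-9) or 2 (HCC827) the value is the change of the other line alone, so it is no further check. ITGA2 then had -1.18 or -1.54, ITGB5 0.54 or 0.14 and ITGB8 0.15 or 0.57. Signs differed there for ITGB1 (-0.14 or 0.02), ITGB4 (0.37 or -0.02) and ITGB6 (-0.05 or 0.23), and the count has no value there because 1 line leaves no residual degree of freedom. With EGF 1 member was past 2-fold in all 5 alternatives, ITGA2, at 1.09 to 1.11. The number of arrays limits the precision.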
